A study of Mus musculus with 10 samples.

Results

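The genes described here encode the receptors through which noradrenaline, adrenaline and acetylcholine act on heart muscle, and the enzymes that stand directly behind them. The members were the rows of the count files listed as Adrb1, Adra1a, Adra1b, Chrm2, Adcy5, Adcy6, Grk5 and Pde3a, chosen by symbol alone, and all 8 were found among the 23337 genes in the files. Bulk RNA-Seq was performed on left ventricle (LV) and skeletal muscle (SkM) of 5 mice aged 17 weeks, so that every mouse gave 1 library of each tissue. The mice were hybrids from a cross of C57BL/6 E0del/+ with 129SvEv WT, 2 of them WT and 3 heterozygous for E0del, a CRISPR/Cas9 deletion of E0, a conserved sequence in intron 1 of Ttn. Several E0 deletion lines were made for the study and only the line named E0del is in these libraries; animals of both sexes were used, and labels give no sex. Total counts per library were between 11010021 and 17484873.

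In cardiomyocytes, the β1 adrenergic receptor couples through the stimulatory G protein to adenylyl cyclase, and the cyclic AMP made there activates protein kinase A, which raises the rate and force of contraction. The muscarinic M2 receptor acts against this arm through inhibitory G proteins and opens a potassium channel, α1 receptors signal through phospholipase C, receptor kinases such as GRK5 switch off occupied receptors, and phosphodiesterases break cyclic AMP down. In skeletal muscle, acetylcholine acts at the motor end plate through nicotinic receptors that belong to another family.

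Both tissues carried their own markers, with 1 exception among the libraries. The 8 ventricular cardiomyocyte markers (Myh6 the most abundant) summed to 64158 to 93507 counts scaled to the library total (CPM) in LV and to 219 to 2296 CPM in SkM, where Actc1 was the most abundant. The 9 fast skeletal muscle markers (Myh4 the most abundant, none at 0 in any library) summed to 108665 to 119881 CPM in SkM and to 113 to 128 CPM in 4 LV libraries, but to 26975 CPM in the WT LV 2 library. That library held these 9 genes at a median of 22.4% of their SkM mean, against 0.102% to 0.116% in the other 4 LV libraries, and several results that rest on it are therefore given with and without it. Ttn counts do not check the genotype, since E0 lies outside its exons; Ttn stood at 7959 and 9344 CPM in the WT LV libraries and at 7737, 5560 and 6597 CPM in the E0del/+ LV libraries, and at 24205 and 15856 CPM in WT SkM against 20092, 18854 and 13585 CPM in E0del/+ SkM.

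The first question was how the receptors and their effectors differ between the tissues of the same mouse. All 8 genes were higher in LV than in SkM in the edgeR quasi-likelihood test paired by mouse, with Benjamini-Hochberg adjusted p under 0.05 over 13283 genes tested; in that comparison 32.1% of all genes were called higher in LV and 30.0% were called lower. For each of the 8, the lowest LV library lay above the highest SkM library in CPM, as was so for 52.1% of all genes tested. Adra1b and Chrm2 passed the filter on low counts through LV alone, with 0 of 5 SkM libraries over the limit of 0.712 CPM. Adrb1 had 2 and Pde3a 4 of 5 SkM libraries over it, too few to pass through SkM, so that LV carried them. The calls of these genes thus follow from the filter, for Adrb1 and Pde3a in part. The number of calls among the 8 is given as a description. In these bulk samples, fewer cells of a type and less RNA per cell cannot be told apart, and the part of cell content in any difference between the tissues was not tested.

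**Figure D1:**
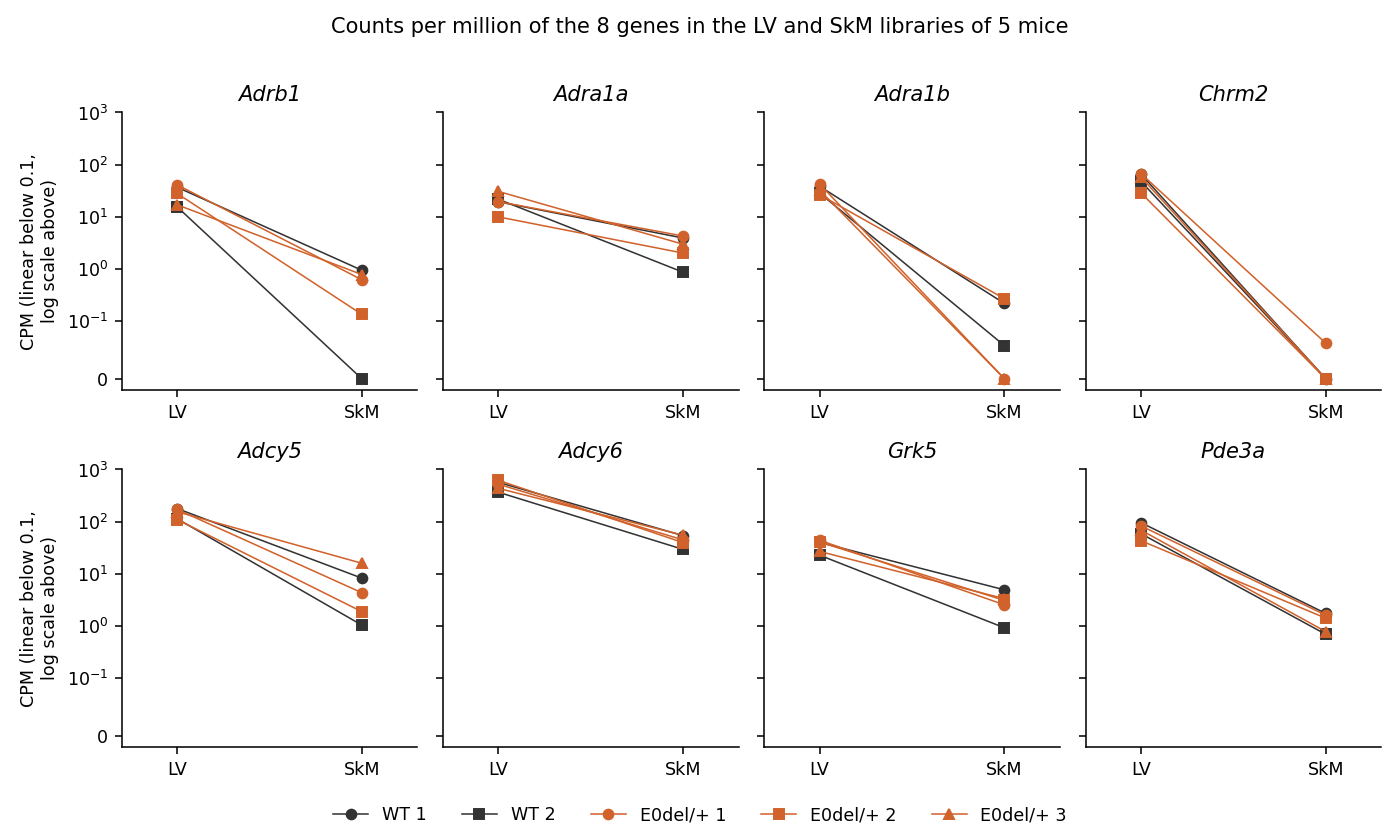
CPM of each of the 8 genes (vertical axis, linear below 0.1 and logarithmic above) in the LV and the SkM library of every mouse, with 1 line per mouse, black for WT and orange for E0del/+. Every line falls from LV to SkM, for Chrm2 to 0 in 4 of 5 mice, while Adcy6 stays between 29.2 and 54.6 CPM in SkM.

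Adrb1 encodes the β1 receptor, the main adrenergic receptor of working myocardium, and lies on chromosome 19 from 56722372 to 56724862 of mm10 on the plus strand as a single exon. It stood at 36.8 and 15.5 CPM in the WT LV libraries and at 40.9, 28.0 and 16.9 CPM in the E0del/+ LV libraries. In SkM it stood at 0.936 and 0 CPM in WT and at 0.615, 0.133 and 0.774 CPM in E0del/+, which is 36 counts in 5 libraries. The highest SkM library thus held 3.39% of the LV mean, and within LV the WT LV 2 and E0del/+ LV 3 libraries were lower than the other 3. The fold change of LV over SkM was 38.6 (95% interval 18.3 to 81.5; log2 5.27, SE 0.46; adjusted p = 5.29e-05 by edgeR), and LV was higher in 5 of 5 mice.

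Adra1b encodes the α1B receptor, which couples to Gq and phospholipase C, and lies on chromosome 11 from 43774606 to 43836332 on the minus strand with 2 exons in the files. Its LV values were 38.3 and 28.3 CPM in WT and 42.3, 26.4 and 32.2 CPM in E0del/+. The SkM libraries held 3 and 1 counts in WT and 0, 4 and 0 counts in E0del/+, or at most 0.267 CPM. This gene was therefore close to absent from SkM at this depth, where a count of 0 allows up to 0.185 CPM in the E0del/+ SkM 1 library and 0.211 CPM in the E0del/+ SkM 3 library. Over all libraries, the 2123 LV counts and 8 SkM counts gave a ratio of CPM of 329 (95% counting interval 167 to 763), and the fitted log2 fold change was 7.57 (SE 0.50; adjusted p = 1.53e-05 by edgeR; 7.13 to 8.37 with 1 mouse left out, the highest without E0del/+ 2).

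Adra1a encodes the α1A receptor, a close relative with the same coupling, on chromosome 14 from 66635258 to 66733329 of the plus strand with 4 exons. It stood at 19.3 and 21.6 CPM in WT LV and at 19.4, 9.90 and 30.5 CPM in E0del/+ LV. In SkM it stood at 3.89 and 0.858 CPM in WT and at 4.25, 2.00 and 2.96 CPM in E0del/+. Of the 8 genes it showed the smallest tissue difference in the fit, with LV 4.73-fold over SkM (95% interval 2.67 to 8.39; log2 2.24, SE 0.36; adjusted p = 0.000965 by edgeR), and its lowest LV library, E0del/+ LV 2, was still above every SkM library.

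The pair of α1 receptors therefore had a different balance in each tissue. Per kilobase of exon (RPKM), Adra1a made up 27.1% and 35.9% of the summed level of both in WT LV and 25.2%, 21.6% and 41.1% in E0del/+ LV. In SkM its share was 93.0% and 91.7% in WT and 100%, 84.7% and 100% in E0del/+, on 16 to 69 counts of both genes per library. The share of Adra1a was higher in SkM in 5 of 5 mice, and the ranges of the tissues did not overlap. The difference, LV minus SkM, was -63.7 percentage points ± 7.31 (SD, n = 5 mice; exact permutation test over sign changes of the 5 differences, two-sided p = 0.0625, the lowest value it can reach).

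Chrm2 encodes the M2 muscarinic receptor, through which the vagus slows the heart, and lies on chromosome 6 from 36388084 to 36524774 of the plus strand with 3 exons. Its LV values were 65.8 and 47.6 CPM in WT and 67.1, 28.6 and 57.7 CPM in E0del/+. In SkM it had 0 counts in 4 libraries and 1 count, or 0.0615 CPM, in the E0del/+ SkM 1 library. Chrm2 was thus present in every LV library and near 0 in SkM, with the E0del/+ LV 2 library the lowest of LV. The 3392 LV counts against 1 SkM count gave a ratio of CPM of 4207 with a 95% counting interval from 754 to 166198, so that the size of the fold is open over a wide range; the adjusted p was 1.41e-06 by edgeR.

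The SkM values of these genes can be set beside those of other transcripts of ventricular muscle. The 8 ventricular markers stood in the SkM libraries at a median of 0.149% to 0.474% of their LV mean. Chrm2 stood at 0% in 4 of these libraries and at 0.115% in the fifth. Within a single library, this depth does not place it below the markers. Pooled over the SkM libraries, the lower counting limit of 754 for LV over SkM places Chrm2 below these medians, for counting error only. Single markers were as low as 0.066% (E0del/+ SkM 2). Adra1b stood at 0% to 0.795%, Adrb1 at 0% to 3.39% and Pde3a at 0.985% to 2.48%. Whether the few SkM counts of these genes came from muscle fibers or from other cells was not tested.

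The promoters of the receptors that were near 0 in SkM (Adrb1, Adra1b and Chrm2) are shown because these 3 genes differed most between the tissues among the receptors. Sequences are from RefSeq on GRCm38.p6, 250 bases before to 50 bases after an annotated start, 5′ to 3′ on the strand of the gene, and 5 of the 8 genes matched the table (Adrb1, Adra1b, Chrm2, Adcy5 and Grk5). Capitals mark the GC box GGGCGG, the CCAAT box CCAAT and the cyclic AMP response element core TGACG on either strand, which do not overlap each other in these windows. For Adra1b, of 2 starts in the table, the start nearer to the exons in the files is shown.
Adrb1, chr19:56721867-56722166, plus strand: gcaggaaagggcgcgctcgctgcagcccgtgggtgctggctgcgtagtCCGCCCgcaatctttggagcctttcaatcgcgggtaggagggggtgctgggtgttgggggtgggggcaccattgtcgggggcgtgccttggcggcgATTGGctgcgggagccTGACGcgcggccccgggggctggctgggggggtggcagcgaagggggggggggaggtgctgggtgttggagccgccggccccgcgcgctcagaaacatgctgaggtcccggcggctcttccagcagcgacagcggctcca
Adra1b, chr11:43836440-43836739, minus strand: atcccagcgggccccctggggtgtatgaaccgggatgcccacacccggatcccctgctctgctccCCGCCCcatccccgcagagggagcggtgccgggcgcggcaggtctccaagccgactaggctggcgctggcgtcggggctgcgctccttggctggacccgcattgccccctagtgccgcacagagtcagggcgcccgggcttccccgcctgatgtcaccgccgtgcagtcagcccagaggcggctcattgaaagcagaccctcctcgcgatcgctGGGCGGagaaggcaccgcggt
Chrm2, chr6:36387834-36388133, plus strand: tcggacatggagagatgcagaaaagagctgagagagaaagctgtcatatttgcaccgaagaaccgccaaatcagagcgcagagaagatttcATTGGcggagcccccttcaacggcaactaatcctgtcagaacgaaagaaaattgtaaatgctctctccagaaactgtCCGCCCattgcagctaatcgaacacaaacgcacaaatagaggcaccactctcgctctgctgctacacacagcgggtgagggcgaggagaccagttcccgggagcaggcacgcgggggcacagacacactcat

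The windows of Adrb1 and Adra1b were close in base composition and that of Chrm2 was lower in GC. GC content was 72.3% for Adrb1, 71.3% for Adra1b and 52.7% for Chrm2, where the median over 32851 promoters was 52.7% with quartiles of 45.7% and 61.7%. The GC box occurred in 35.7% of all promoters and in the windows of Adrb1, Adra1b, Chrm2 and Adcy5 (79.0% GC), CCAAT in 37.4% and in those of Adrb1 and Chrm2 and the second start of Adra1b, and TGACG in 20.8% and in that of Adrb1, 90 bases before the start. The motifs of NKX2-5 (TNAAGTG, 11.5% of promoters), GATA factors (AGATAA, 11.2%), TEAD factors (CATTCC, 14.7%), the E-box CACGTG (7.15%), the TATA box TATAAA (13.6%), MEF2 (3.19%) and the CArG box (1.63%) were searched on both strands and had no match in the 6 windows of the 5 genes. A match or its absence describes the letters of this window only.

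Adcy6 and Adcy5 encode the calcium-inhibited adenylyl cyclases that are held to be the main ones of the heart. Adcy6, on chromosome 15 from 98589986 to 98607633 of the minus strand with 22 exons, stood at 567 and 366 CPM in WT LV and at 522, 620 and 435 CPM in E0del/+ LV. In SkM it stood at 53.6 and 29.2 CPM in WT and at 44.4, 39.4 and 54.6 CPM in E0del/+. Adcy6 thus had the most counts of the 8 genes in both tissues, with the WT LV 2 library lowest in LV. LV was 7.21-fold over SkM (95% interval 5.73 to 9.08; log2 2.85, SE 0.14; adjusted p = 6.43e-06 by edgeR).

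Adcy5 lies on chromosome 16 from 35155636 to 35304549 of the plus strand with 21 exons. Its LV values were 178 and 113 CPM in WT and 171, 109 and 154 CPM in E0del/+. Its SkM values were 8.21 and 1.03 CPM in WT and 4.31, 1.87 and 15.8 CPM in E0del/+. The SkM libraries spread far more in proportion than the LV libraries, E0del/+ SkM 3 and WT SkM 1 being the highest, and no SkM library reached the LV range. LV was 20.4-fold over SkM (95% interval 9.93 to 41.8; log2 4.35, SE 0.45; adjusted p = 0.000108 by edgeR).

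Adcy5 in SkM followed the same order as the adipocyte markers over the 5 libraries. The 6 adipocyte markers (Cfd the most abundant, and all 6 with a count in every SkM library) summed to 1129 and 8.98 CPM in WT SkM and to 282, 148 and 1184 CPM in E0del/+ SkM, so that the highest sum was in E0del/+ SkM 3 and the lowest in WT SkM 2 for the markers and for Adcy5. In LV these markers summed to 1.83 to 280 CPM, with Ucp1 at 0 in 4 of 5 libraries, and the highest sum was in WT LV 2. Their part in the SkM values of Adcy5 was not tested.

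The share of Adcy5 in the summed level of both cyclases per kilobase was 27.2% and 27.0% in WT LV and 28.1%, 17.3% and 29.7% in E0del/+ LV. In SkM the share was 15.4% and 4.03% in WT and 10.3%, 5.34% and 25.7% in E0del/+. The share was higher in LV in 5 of 5 mice, although the E0del/+ SkM 3 library lay inside the LV range. The difference, LV minus SkM, was 13.7 percentage points ± 7.09 (SD, n = 5 mice; p = 0.0625 by the same exact permutation test, again its lowest value).

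Grk5 encodes a kinase that phosphorylates agonist-occupied β receptors, on chromosome 19 from 60889749 to 61092555 of the plus strand with 16 exons. It stood at 39.7 and 22.6 CPM in WT LV and at 43.8, 40.5 and 26.7 CPM in E0del/+ LV. In SkM it stood at 4.89 and 0.915 CPM in WT and at 2.52, 3.06 and 3.31 CPM in E0del/+. As for Adrb1, the WT LV 2 and E0del/+ LV 3 libraries were the lowest of LV. LV was 7.93-fold over SkM (95% interval 5.38 to 11.7; log2 2.99, SE 0.24; adjusted p = 3.59e-05 by edgeR), and LV was higher in 5 of 5 mice.

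Pde3a encodes a cyclic AMP phosphodiesterase that is inhibited by cyclic GMP and is the target of milrinone, on chromosome 6 from 141249269 to 141499351 of the plus strand with 16 exons. Its LV values were 95.4 and 58.6 CPM in WT and 82.8, 43.0 and 68.6 CPM in E0del/+. Its SkM values were 1.73 and 0.686 CPM in WT and 1.60, 1.40 and 0.774 CPM in E0del/+, on 11 to 26 counts per library. SkM was low in every mouse, and the E0del/+ LV 2 library was again the lowest of LV. LV was 35.7-fold over SkM (95% interval 23.5 to 54.2; log2 5.16, SE 0.26; adjusted p = 6.43e-06 by edgeR).

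Scaling and pairing did not change these calls, although the level of all genes moved with the scaling. With total counts in place of TMM factors, the median log2 fold change of all 13283 genes rose from 0.02 to 0.68, and the calls shifted from 4269 higher and 3986 lower to 7881 higher and 1590 lower. Relative to that median, the members moved little, for example Adrb1 from 5.25 to 5.22, Adra1a from 2.22 to 2.22 and Adcy6 from 2.83 to 2.83. Without the mouse that gave the WT LV 2 library, 8202 genes were called in place of 8255, and each of the 8 genes was still higher in LV at an adjusted p under 0.05 by edgeR. The annotation GENCODE M21 lists genes on the other strand that share exon bases with Adcy6 (605 bases), Pde3a (741) and Chrm2 (142); whether the counting used strand is not given in the sources used here, so reads of these pairs cannot be told apart over those bases.

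Levels were compared between genes per kilobase of exon. In LV, Adcy6 was highest at 83.3 ± 16.9 RPKM (SD, n = 5), above every value of the other 7 genes. Adcy5 at 28.7 ± 6.34 and Chrm2 at 26.2 ± 7.79 RPKM followed and did not differ beyond their spread, Adcy5 being higher in 4 of 5 libraries. Pde3a had a mean of 16.6 ± 4.86 RPKM. Adrb1 at 11.1 ± 4.59, Grk5 at 10.9 ± 2.96 and Adra1b at 8.67 to 13.9 RPKM could not be ranked against each other, and Adra1a had the lowest mean at 4.87 ± 1.78 RPKM. Ranges of neighbors below Adcy6 overlapped, with Pde3a above Adrb1 in 4 of 5 libraries, and Adra1a above Adrb1 in the E0del/+ LV 3 library.

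The order in SkM was different below the cyclases. Adcy6 was again highest at 7.35 ± 1.75 RPKM, with no overlap with any other member. Adcy5 at 1.23 ± 1.19, Grk5 at 0.929 ± 0.453 and Adra1a at 0.674 ± 0.336 RPKM overlapped with their neighbors in this order. Pde3a at 0.294 ± 0.114 and Adrb1 at 0.197 ± 0.163 RPKM had lower means, and Adra1b at 0.0354 ± 0.0411 and Chrm2 at 0.00604 ± 0.0135 RPKM had the lowest. The ranges of neighbors in this order below Adcy6 overlapped, although Adra1a was above Pde3a in 5 of 5 libraries. Adrb1 was above Adra1b in 3 of 5 libraries. The ranges of Adcy5, Grk5, Adra1a and Pde3a lay above those of Adra1b (at most 0.0875 RPKM) and Chrm2 (at most 0.0302 RPKM). The other places below Adcy6 were not resolved.

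The make-up of the gene families differed between the tissues accordingly. Of the summed RPKM of the 9 adrenergic receptor genes, Adra1b made up 32.2% ± 1.95 (SD, n = 5) and Adrb1 31.8% ± 9.73 in LV. In SkM, Adrb1 made up 1.35% ± 1.03 and Adra1b 0.319% ± 0.404. Both shares were higher in LV in 5 of 5 mice, so that these receptors were a large part of the family in LV and a small part in SkM. Adrb3, the β receptor of adipocytes, stood at 25.1 and 0 CPM in WT SkM and at 7.08, 3.60 and 16.3 CPM in E0del/+ SkM, and like Adcy5 it was highest in the 2 libraries with the highest adipocyte sums; their part in it was not tested.

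The effector families showed the same kind of shift. Adcy6 and Adcy5 made up 56.1% ± 4.12 and 19.6% ± 4.05 of the summed RPKM of 10 adenylyl cyclase genes in LV, and 17.6% ± 2.36 and 2.82% ± 2.63 in SkM (SD, n = 5). In SkM the largest shares were those of Adcy9 at 34.1% ± 1.64 and Adcy2 at 32.7% ± 6.47, so that other cyclases held most of the family there. The summed level of the family was 148 ± 20.4 RPKM in LV and 41.3 ± 6.41 RPKM in SkM on library totals. Grk5 made up 15.6% ± 2.72 of 6 receptor kinase genes in LV and 2.09% ± 0.958 in SkM. Adrbk1, the gene of GRK2, made up 55.9% ± 3.49 in LV and 73.3% ± 3.37 in SkM and was the largest of that family in both.

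Among 17 phosphodiesterase genes, Pde3a made up 9.30% ± 2.60 of the summed RPKM in LV and 0.193% ± 0.0774 in SkM (SD, n = 5). The largest share in LV was that of Pde2a at 24.1% ± 4.92, and in SkM that of Pde4d at 28.1% ± 2.00. Of the 5 muscarinic receptor genes, Chrm2 made up 97.9% ± 1.98 of the summed RPKM in LV; in SkM the family summed to 0.177 ± 0.136 RPKM, and no order within it is given at that level.

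**Figure D2:**
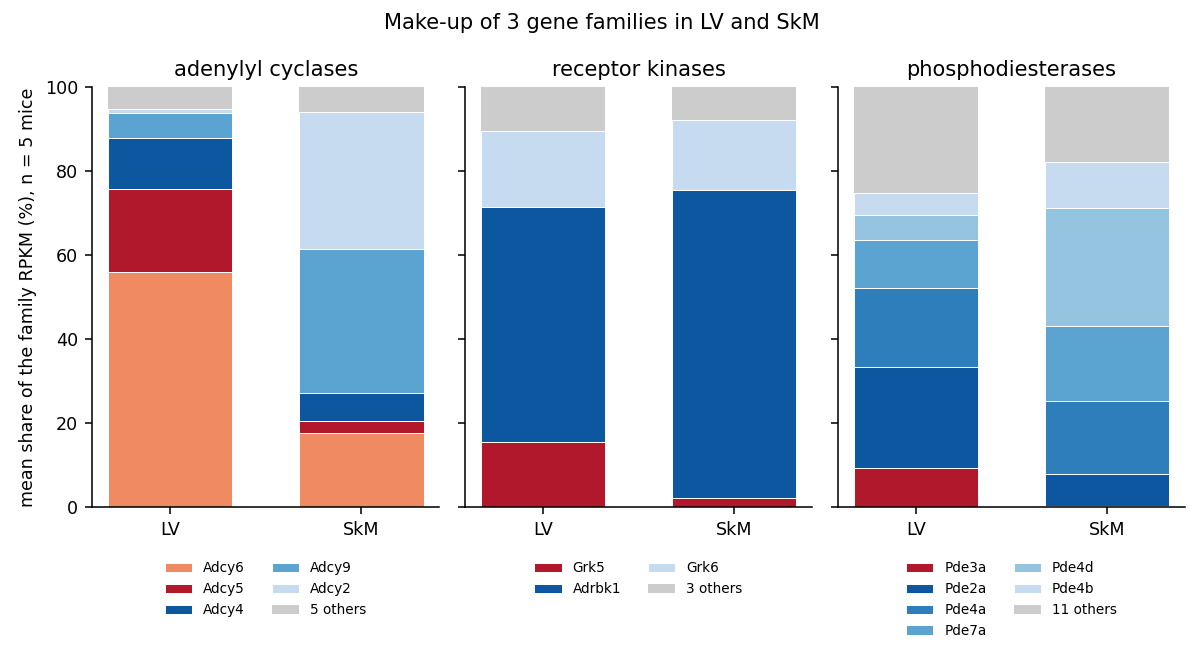
Mean share of each gene in the summed RPKM of its family (vertical axis, percent, n = 5 mice) in LV and SkM for 3 families, with the genes described here in red and orange and genes that stay under 10% in both tissues joined as others. Adcy6 and Adcy5 fill 56.1% and 19.6% of the adenylyl cyclase bar in LV, and 17.6% and 2.82% in SkM.

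The other genes of these pathways were described from 11 lists with 119 genes, of which 107 were tested in LV against SkM; 59 were called higher in LV and 20 lower, beside 32.1% and 30.0% of all 13283 genes tested. With total counts in place of TMM factors, 80 were called higher and 15 lower, beside 7881 and 1590 of all genes, so that the split depends on the scaling. Both splits are given below for 8 of the 11 lists, and not for the other adrenergic receptors, the other muscarinic receptors and the potassium channel. These shares of all genes also stand beside the counts of these lists, and median log2 fold changes stand beside the median of 0.02 for all genes tested (0.68 with total counts). Among the other adrenergic receptors, Adra1d, which is also an α1 receptor, was 4.19-fold higher in LV (log2 2.07, SE 0.51; adjusted p = 0.00855 by edgeR). The lowest SkM value of Adra1d was 0.229 CPM, under the limit of 0.712 CPM, so that it passed the filter through LV. Adra2b was higher in LV as well (log2 1.51, SE 0.42; adjusted p = 0.0149), a call that was lost without the WT 1 mouse (adjusted p = 0.0549; 0.00271 to 0.0549 over its alternatives); its SkM values were at most 0.633 CPM, under the limit of 0.712 CPM. Of the 4 other muscarinic receptors only Chrm3 was tested, and its adjusted p of 0.0688 missed the threshold.

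The coupling proteins and the channel behind the M2 receptor were tested next. Of 15 G protein subunits, 9 were higher in LV and 1 lower (13 and 0 with total counts; median 0.80). Gnb3 was 14.9-fold higher in LV (log2 3.90, SE 0.31; adjusted p = 3.45e-05 by edgeR). Its lowest SkM value was 0.493 CPM, under the limit of 0.712 CPM, so that it passed the filter through LV. The lower gene was Gnas, the stimulatory α subunit, with a log2 of -0.71 (SE 0.17; adjusted p = 0.00752) that became -0.04 with total counts (adjusted p = 0.781). Gnas had the highest RPKM of the list in both tissues, at 155 ± 16.0 in LV and 160 ± 19.5 in SkM (SD, n = 5) on library totals. Of the muscarinic potassium channel, Kcnj5 stood at 106 to 178 CPM in LV and at 0 to 1.11 CPM in SkM, and Kcnj3 at 15.5 to 28.3 CPM and 0 to 0.369 CPM. Kcnj3 was under the limit of 0.712 CPM in every SkM library, so that it passed the filter through LV alone. Its call therefore follows from the filter. Kcnj5 also had SkM libraries under the limit and passed the filter through LV.

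Other enzymes of the pathway moved in both directions. Of the 8 other adenylyl cyclases, 7 were tested, with 4 higher and 2 lower in LV (5 and 2 with total counts; median 0.95). Among the higher ones, Adcy8 had at most 0.185 CPM in SkM, so that it passed the filter through LV alone and its call follows from the filter. Adcy2 was the most strongly lower gene (log2 -5.68, SE 0.94; adjusted p = 0.00121 by edgeR) and stood at 26.5 CPM in the WT LV 2 library against 0.272 to 0.999 CPM in the other 4 LV libraries; without that mouse the log2 was -6.99. With LV libraries under the limit of 0.712 CPM, Adcy2 passed the filter through SkM. Adcy9 was 2.75-fold higher in SkM (log2 LV over SkM -1.46, SE 0.23; adjusted p = 0.000939). Of 12 receptor kinases, arrestins and RGS proteins, 11 were tested, with 6 higher and 2 lower (9 and 0 with total counts; median 0.44), the lower ones being Adrbk1 and Arrb1, whose sign turned with total counts. Rgs6, a regulator of muscarinic signaling in the heart, was 41.8-fold higher in LV (log2 5.39, SE 0.32; adjusted p = 1.10e-05), with at most 0.432 CPM in SkM, so that it too passed the filter through LV alone.

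Of the 16 other phosphodiesterases, 6 were higher and 4 lower in LV (11 and 4 with total counts; median 0.39). Pde1c was 45.5-fold higher in LV (log2 5.51, SE 0.24; adjusted p = 4.30e-06 by edgeR). Its lowest SkM value was 0.572 CPM, under the limit of 0.712 CPM, so that it passed the filter through LV. Pde4d was 6.62-fold higher in SkM (log2 LV over SkM -2.73, SE 0.20; adjusted p = 2.22e-05). Among 20 genes of protein kinase A, Epac, Popeye and AKAP proteins, 12 were higher and 5 lower (15 and 3; median 0.67), with the Epac gene Rapgef4 12.6-fold higher in LV and the kinase inhibitor Pkia 4.41-fold higher in SkM. The isoforms thus moved in opposite directions within several of these families. Of 13 genes of the phospholipase C arm, 6 were higher and 2 lower (8 and 2; median 0.47), with Prkcq 18.0-fold higher in SkM (log2 LV over SkM -4.17, and -4.58 without the mouse of WT LV 2).

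The cardiac targets of protein kinase A and the genes of transmitter supply completed the lists. Of 9 phosphorylation targets and regulators, 7 were higher in LV and 1 lower (8 and 1; median 6.81), Mybpc3 and Ryr2 with the largest rises (log2 9.19 and 9.06), and Ppp1r1a, which encodes an inhibitor of a phosphatase and was the lower one (log2 -5.00; adjusted p = 0.000872 by edgeR; log2 -6.11 without the mouse of WT LV 2). Ppp1r1a had LV libraries under the limit of 0.712 CPM and passed the filter through SkM. Of 14 genes of transmitter synthesis and clearance, 9 were tested, with 5 higher and 2 lower (6 and 2; median 1.26). Dbh, which makes noradrenaline, stood at 3.13 ± 0.788 CPM in LV and 0.0123 ± 0.0275 CPM in SkM (SD, n = 5) and passed the filter through LV alone. Th, listed with Dbh among the sympathetic neuron markers, went the other way, at 0 to 0.270 CPM in LV and 0.648 to 1.27 CPM in SkM. Ache, which splits acetylcholine, was 9.39-fold higher in SkM (log2 LV over SkM -3.23, and -3.54 without the mouse of WT LV 2; adjusted p = 0.000158).

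**Figure D3:**
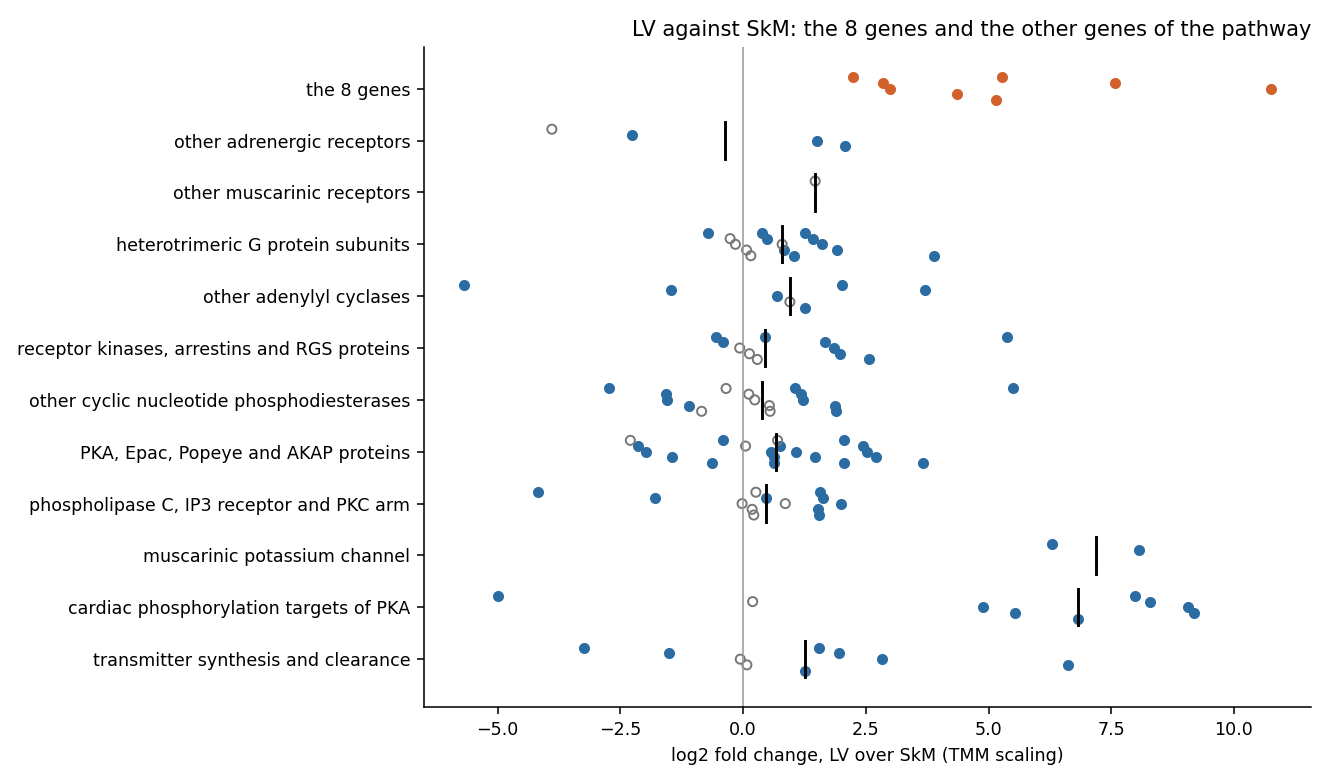
Log2 fold change of LV over SkM with TMM scaling (horizontal axis) for the 8 genes in orange and for the tested genes of 11 pathway lists in blue, filled where the adjusted p was under 0.05 and open otherwise, with a bar at the median of each pathway list. The 8 genes lie between 2.24 and 10.75, where the position of Chrm2 depends on the prior count of the fit, while most other lists reach to both sides of 0.

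The second question was whether heterozygous loss of E0 went with a change of these genes within a tissue. In LV, 0 of 13420 genes (0%) had an adjusted p under 0.05 by edgeR and 564 (4.20%) had an unadjusted p under 0.05, among them none of the 8. The log2 fold changes of E0del/+ over WT lay between -0.28 for Pde3a (95% interval of the fold change 0.500 to 1.36) and 0.19 for Grk5 (0.763 to 1.71). In between, Adrb1 had 0.09 (0.566 to 1.99), Adra1a -0.07 (0.479 to 1.91), Adra1b -0.03 (0.664 to 1.45), Chrm2 -0.18 (0.500 to 1.56), Adcy5 -0.04 (log2 interval -0.67 to 0.59) and Adcy6 0.11 (0.755 to 1.54), each with an adjusted p of 0.997. These intervals are wide, and a p that misses the threshold does not show equal levels. In CPM the E0del/+ and WT ranges of LV overlapped for each of the 8, where 15.4% of all genes tested did not overlap.

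The other settings of this comparison that made calls made none among the 8. DESeq2 called 12 genes in LV (1 higher, 11 lower), of which 10 stood far higher in the WT LV 2 library than in any other LV library, as Myh4 at 18473 CPM there against 70.3 to 81.7 CPM in the other 4. With batch, which equals the replicate number in the labels, as a block, 5 genes were called lower: the Y-linked genes Ddx3y, Eif2s3y, Kdm5d and Uty, and Mstn, which stood at 43.3 CPM in WT LV 2 and at 0.325 to 0.908 CPM elsewhere. These genes were named after their values were seen. Without the WT LV 1 library, when WT LV 2 alone stood for WT, 578 genes were called (4 higher, 574 lower); without WT LV 2 the count was 0, with 104 genes at an unadjusted p under 0.05. The lowest adjusted p of any of the 8 over all these alternatives in LV was 0.461.

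In SkM, 0 of 13154 genes (0%) had an adjusted p under 0.05 by edgeR, 114 (0.867%) had an unadjusted p under 0.05, and DESeq2 called 0. With batch as a block 1 gene was called lower, Eif2s3y, which is Y-linked and was named after its value was seen. Adra1b and Chrm2 did not pass the filter in SkM, and the log2 fold changes of the other 6 lay between 0.11 for Pde3a (95% interval -1.40 to 1.62) and 0.77 for Adcy5 (-2.02 to 3.55), with adjusted p of 1.00 each. The intervals were far wider than in LV for the genes with few counts, for Adrb1 from -3.43 to 3.91, and narrowest for Adcy6 at -0.40 to 0.78. No member's E0del/+ and WT ranges failed to overlap in SkM, where 11.4% of all genes tested did. The signs were not stable. Without the WT SkM 2 library, each of the 6 tested genes had a log2 below 0, from -0.75 for Adrb1 to -0.03 for Adcy5. Other alternatives turned signs as well: Adcy5 reached -0.53 with another mouse left out. Adcy5 was reversed in 3 and Pde3a in 4 of 13 alternatives each.

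**Figure D4:**
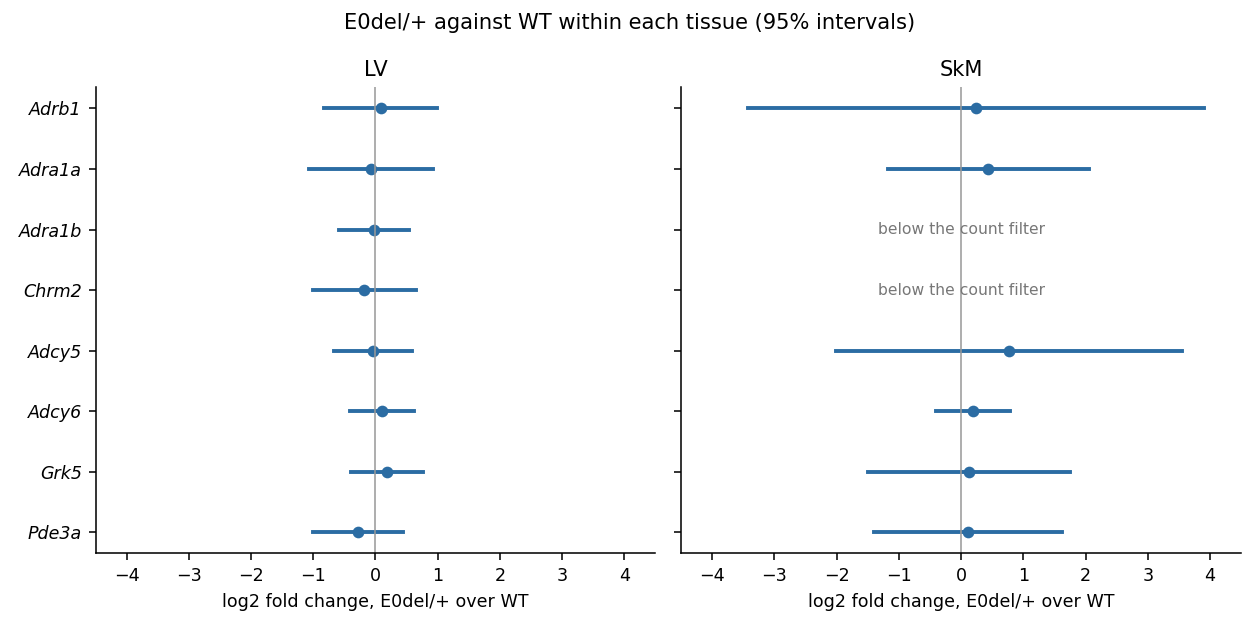
Log2 fold change of E0del/+ over WT (horizontal axis) for each gene in LV and in SkM, with points for the edgeR estimate and lines for 95% intervals (2 WT against 3 E0del/+ libraries). Every interval spans 0, and the SkM intervals of Adrb1 and Adcy5 are the widest.

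The difference between the genotype effects of the tissues was tested in 1 fit over the 10 libraries. It was called for 0 of 14327 genes (0%) by edgeR, with 238 at an unadjusted p under 0.05. For the 8, the difference, SkM minus LV, lay between -0.47 for Adra1b and 2.13 for Chrm2 on the log2 scale, and the value of Chrm2 rests on 1 SkM count, being 0.42 without the mouse that gave it. Without the WT 1 mouse 155 genes were called, and the lowest adjusted p of the 8 over the alternatives was 0.353. No difference between the tissues in the response of these genes was detectable with 2 WT mice.

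Within LV, the 8 genes did not vary together. The E0del/+ LV 2 library was the lowest for Adra1a, Adra1b, Chrm2, Adcy5 and Pde3a, at -0.97, -0.28, -1.01, -0.50 and -0.67 on the log2 scale from the LV median, but the highest for Adcy6, at 0.25. These are CPM on library totals, and with TMM factors, of which this library has the highest (1.42), Adcy6 was highest in WT LV 1. E0del/+ LV 2 also had the highest sum of the 5 endothelial markers (Cdh5 the most abundant, none at 0), with 1927 CPM against 1394 and 966 in WT LV and 1279 and 1125 in the other E0del/+ LV libraries. The fibroblast sum was also highest in E0del/+ LV 2, at 1157 CPM against 628 to 994 CPM, and the part of cell content in these values was not tested.

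**Figure D5:**
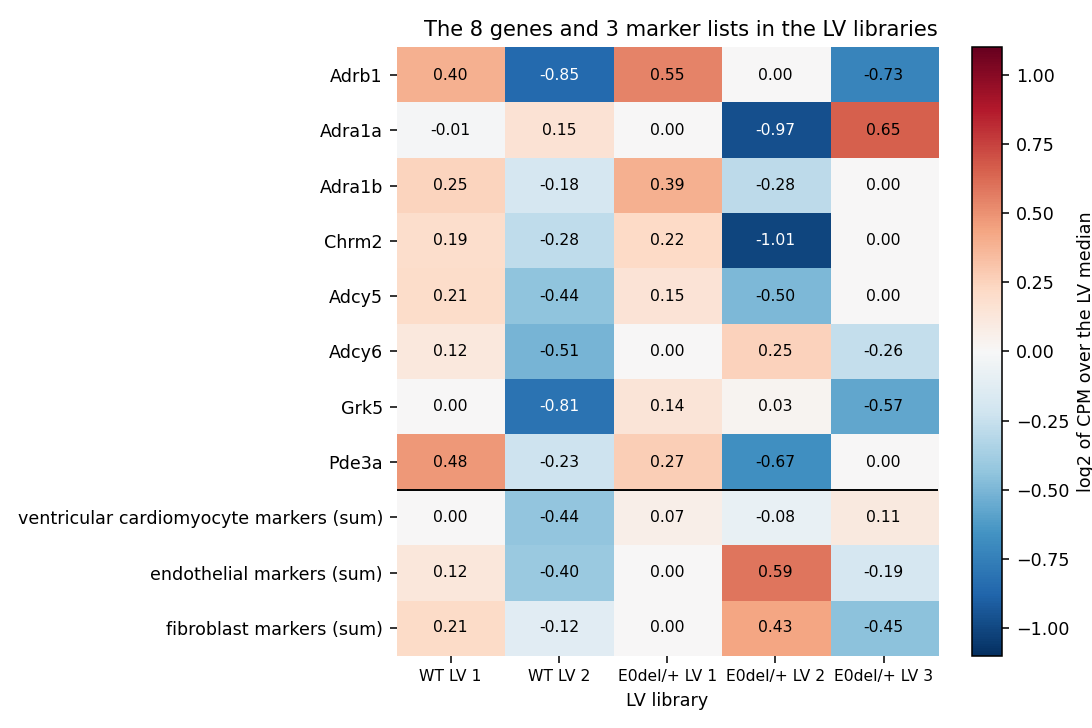
Each LV library's CPM of the 8 genes, and its summed CPM of 3 marker lists below the line, as log2 of the ratio to the median of the 5 LV libraries (color and number). On these library totals, Adcy6 and the endothelial sum are highest in E0del/+ LV 2, at 0.25 and 0.59 (with TMM factors Adcy6 is highest in WT LV 1), where Chrm2 is lowest at -1.01.

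In SkM, WT SkM 2 was the lowest library for Adrb1, Adra1a, Adcy5, Adcy6, Grk5 and Pde3a. It also had the lowest endothelial sum (105 CPM against 174 to 221), adipocyte sum (8.98 CPM against 148 to 1184), fibroblast sum (98.1 CPM against 120 to 303) and leukocyte sum (4.35 CPM against 18.1 to 87.6; 5 markers, none at 0). These CPM values are on library totals, and WT SkM 2 had the lowest TMM factor of the 10 libraries (0.708, the next lowest being 0.745 in E0del/+ SkM 2). The part of composition and of these cell types in its low values was not tested.

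Xist divided the LV libraries in a way the labels do not give. WT 2 and E0del/+ 3 had Xist at 3.60 and 4.89 CPM in LV, and the other 3 mice at 518 to 806 CPM. The WT SkM 1 library carried both kinds, with Xist at 397 CPM and Ddx3y at 12.5 CPM, where WT SkM 2 and E0del/+ SkM 3 had Ddx3y at 94.1 and 108 CPM and the other 2 SkM libraries at 0.369 and 0.333 CPM. Adrb1, Adcy6 and Grk5 were higher in LV in each of the 3 Xist-expressing mice than in the other 2, and Adra1a was lower. Of all genes tested, 30.8% were higher and 6.48% lower in the same way, so that 3 of 8 is near the share of all genes and is not a result about these genes. WT LV 2, with its skeletal muscle transcripts, is 1 of the 2 libraries of the lower group, and the part of sex in these values was not tested.

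Likeness to other genes was measured as the Pearson correlation of log2(CPM with TMM + 1) over the 10 libraries, as a description, in which the difference between the tissues has the largest part. For Chrm2 the 3 most alike of 13282 genes were Nebl (r = 0.999), Grb14 and Ptprn2 (both 0.998), and 2042 genes had r over 0.9. For Adra1b they were Gm6086, Ctnna1 and the cardiac transcription factor Gata4 (all 0.998). For Pde3a, Art4 (0.998) and Tspyl4 (0.997) were among the 3 most alike. Adra1b and Pde3a had 2172 and 2115 genes over 0.9. Adrb1 was most like Trim44 (0.995), Fbxo10 (0.994) and Clstn1 (0.993), Grk5 most like Ntn1, Cul7 (both 0.995) and Olfml2b (0.994), and Adcy6 most like Sdc3, Nrp1 (both 0.998) and Clstn1 (0.997), with 2278, 2295 and 2383 genes over 0.9 in turn. Most of the 8 thus shared their pattern with many other genes. Adcy5 was most like Hspa12a (0.993), Sulf2 (0.991) and Cish (0.990), with 1606 genes over 0.9. Adra1a stood apart from these, with Eif2c1 (0.991), Pdp2 (0.990) and Tnks (0.978) and only 541 genes over 0.9.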

How the data were processed

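LV and SkM libraries of 2 WT and 3 E0del/+ mice were grouped by the sample labels. The authors deposited a raw count and an RPKM value per gene and library on mm10; the submitters' processing notes name STAR and DESeq2 without versions, and strand use is not given in the sources used here. The deposited RPKM equal count over exon length and library total. CPM was computed as count over library total. Counts were tested in R 4.3.3 with edgeR 4.0.16 (filterByExpr, TMM, quasi-likelihood test, Benjamini-Hochberg adjustment over all genes tested, threshold 0.05), within mouse for the tissues and by genotype within a tissue, and with DESeq2 1.42.0 as an alternative; the fits were tested on simulated data. Count ratios have exact binomial 95% intervals, and intervals and floors of 3 counts cover counting error only.

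The tissues of a mouse were paired because they carry the same animal number (correlations of deviations from group means -0.102 to 0.126). Batch tags equal replicate numbers and pair WT with E0del/+ mice in batches 1 and 2 (0.0284 and -0.136 in LV, 0.433 and 0.276 in SkM); batch 3 holds no WT. Named were the 8 genes, from each list up to 2 largest rises and 2 largest falls past the threshold and the most abundant genes, and the 3 genes most like each member. The members and lists were chosen with earlier results of these data known. Sums of markers for blood, atrium, slow fibers and smooth muscle are in the closing section.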

Additional observations from a re-analysis of the deposited data

Results flagged for a closer look

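Chrm2 in the E0del/+ SkM 1 library stood apart from the other 4 SkM libraries, at 0.0615 CPM where the others had 0. This is 1 count, below the 3 counts that a count of 0 allows, and it carries no information on a difference between libraries. Dixon's ratio flags about 1 in 20 groups by chance where values are continuous. That rate does not apply here, since a count in 1 library beside 0 in the others always gives a ratio of 1.0.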

How the results depend on the processing

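In LV against SkM, the 8 genes were higher in LV with an adjusted p under 0.05 in 85 of 85 alternative values (8.15e-88 to 0.00434): scaling by DESeq2 size factors or total counts, DESeq2, no filter or 10 counts in every library, no pairing by mouse, and each mouse left out; the filter of 10 counts in every library gave no value for Adrb1, Adra1b and Chrm2. Without pairing, that is without the mouse block, 8657 genes were called in place of 8255. Leaving out a mouse gave 7240 to 8202 calls. With total counts, Adrbk1 (0.26) and Arrb1 (0.12) changed sign. The share of Adra1a differed by -65.6 to -60.9 points with 1 mouse left out and the share of Adcy5 by 11.4 to 16.1, and without division by length by -58.5 and 12.2.

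For E0del/+ against WT in LV, 0 genes were called by edgeR, 12 by DESeq2 and 5 with batch as replicate block; with 1 mouse left out the count was 0 to 578, the highest without WT 1, when the lone WT library is assumed to vary like the others. In SkM, 1 gene was called with the replicate block and 0 with any mouse left out. The interaction was called for 0 to 155 genes with 1 mouse left out, 155 without WT 1. The causes were not tested.

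The sign of the genotype effects changed for each of the 8 genes under some alternative, except for Chrm2 in the interaction (above 0 in 7 of 7), and no adjusted p was under 0.05. In LV, Adra1b became 0.0152 with total counts and Adrb1 -0.0348 with Xist as block. In SkM, Adcy5 became -0.15 with the replicate block and Pde3a -0.0232 with Xist as block. In the interaction, Grk5 became -0.0871 without the mouse block. With 1 mouse left out, the log2 ranges in LV were -0.36 to 0.76 (Adrb1), -0.57 to 0.29 (Adra1a), -0.24 to 0.17 (Adra1b), -0.42 to 0.14 (Chrm2), -0.27 to 0.24 (Adcy5), -0.12 to 0.38 (Adcy6), -0.10 to 0.58 (Grk5) and -0.53 to 0.0401 (Pde3a). In SkM they were -0.75 to 5.98 (Adrb1), -0.22 to 1.69 (Adra1a), -0.53 to 2.70 (Adcy5), -0.0817 to 0.54 (Adcy6), -0.58 to 1.57 (Grk5) and -0.32 to 0.74 (Pde3a). For the interaction they were -0.37 to 5.40 (Adrb1), -0.11 to 1.97 (Adra1a), -4.43 to 0.37 (Adra1b), 0.42 to 2.69 (Chrm2), -0.0825 to 2.02 (Adcy5), -0.16 to 0.18 (Adcy6), -0.38 to 0.96 (Grk5) and -0.0208 to 0.81 (Pde3a). The direction was the same in 83 of 98 alternative values in LV, 65 of 76 in SkM and 43 of 56 for the interaction.

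DESeq2 gave no adjusted p in LV for Adrb1, Adra1a, Adra1b, Chrm2, Grk5 and Pde3a. Depth limits Adra1b and Chrm2 in SkM, where 8 counts and 1 count were found in 5 libraries. With 2 WT mice, small genotype effects could not be seen, and the genotypes are not balanced over batches or over Xist expression.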

Other observations

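Further marker lists gave the following sums. The 5 atrial cardiomyocyte markers (Nppa the most abundant in LV) summed to 222 and 202 CPM in WT LV and to 231, 594 and 437 CPM in E0del/+ LV, with Bmp10 at 0 in 3 of 5 LV libraries, and to 5.42 to 17.2 CPM in SkM. E0del/+ LV 2, the lowest LV library for Chrm2, Adra1a, Adra1b, Adcy5 and Pde3a, thus had the highest atrial sum. This sum was mostly Nppa, at 582 CPM in E0del/+ LV 2. Myl4 stood at 7.27 CPM there, at 6.44 CPM in E0del/+ LV 1 and at 2.44 CPM in E0del/+ LV 3.

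The 3 slow skeletal muscle markers (Myh7 the most abundant) summed to 999 and 91.1 CPM in WT SkM and to 1391, 1850 and 196 CPM in E0del/+ SkM. The 3 mice with high sums were those that expressed Xist. Adcy6 in SkM did not follow this division, with 54.6 CPM in E0del/+ SkM 3 and 29.2 CPM in WT SkM 2.

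The smooth muscle and pericyte markers (6 genes, Abcc9 the most abundant) summed to 874 to 1216 CPM in LV and to 387 to 559 CPM in SkM. Of the 5 blood markers 3 are listed in the files, and only Alas2 had counts, at 2.52 to 31.6 CPM.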
